A study of Homo sapiens with 4 samples.

Results

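The Krüppel-like factors (KLF) are transcription factors that end in 3 zinc fingers, with which they bind GC boxes and CACCC boxes of promoters. Their zinc fingers are much alike, while the part before them differs: in some it holds an acidic activation domain, in others a site for the corepressor CtBP or for the corepressor SIN3. In epithelial cells different KLF genes act in proliferation, in differentiation and in the first response to injury or growth factors. Described here are 10 KLF genes, KLF2, KLF3, KLF4, KLF6, KLF7, KLF9, KLF10, KLF11, KLF13 and KLF16, found by gene name among 58735 genes of the deposited table, in which 18 protein-coding genes carry a KLF number. KLF5 was set aside by the rule that chose them.

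The labels give the cells sequenced as OVCAR8, an established line from a human ovarian cancer, and the identity of the line was not tested. The group shFAM49B (2 libraries) carried short hairpin RNAs against FAM49B, whose product binds RAC1, a GTPase of the actin cytoskeleton, and the group shCON (2 libraries) carried a scrambled hairpin. Both groups are the same line, the genotype of shCON being given as WT, and the protocol gives a harvest 36 h after lipofection of the lentiviral plasmids, while the design text calls the knockdown stable. No source used here gives the hairpin sequences or any selection, or says whether libraries of 1 group are separate cultures. The p-values therefore cover only library-to-library spread, which may be technical.

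FAM49B itself measured 1.06 and 1.02 FPKM in shFAM49B, against 7.41 and 7.60 FPKM in shCON (log2 fold change -2.06, limma adjusted p = 0.00054). FPKM, the unit deposited, scales the reads of a gene by its length and by a size of the library. Here that size followed median ratios of genes and not the sum of reads. The reads behind the FPKM values could be recovered and came to 16288871 and 16290200 in shFAM49B and to 15639559 and 16875353 in shCON. The size used was 0.941 and 0.919 times these reads in shFAM49B, against 1.08 and 1.10 times in shCON. Of 9 ovarian and epithelial markers, PAX8, KRT7, MUC16, WFDC2 and MSLN lay below 1 FPKM in every library, whereas KRT8 and KRT18 lay between 23.2 and 41.7 FPKM. EPCAM fell to 0.129 and 0.345 FPKM in shFAM49B, against 2.94 and 2.96 FPKM in shCON. The 9 markers summed to 62.7 and 63.0 FPKM in shFAM49B and to 74.4 and 71.9 FPKM in shCON, and their part in the results on KLF genes was not tested. The leukocyte marker PTPRC and the endothelial marker PECAM1 stayed at or below 0.0458 FPKM in every library. Of 5 fibroblast markers only COL1A1 was tested, at 5.91 and 6.55 FPKM in shFAM49B and 5.36 and 5.83 FPKM in shCON, and it did not pass (adjusted p = 0.239). In bulk RNA, fewer cells of a kind and less RNA per cell cannot be told apart.

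All 10 KLF genes averaged 1 FPKM or more across the 4 libraries and entered the test, limma on log2(FPKM + 1) over 13775 genes with Benjamini-Hochberg adjustment and a threshold of 0.05. KLF6, KLF2 and KLF16 were higher in shFAM49B, and KLF10, KLF4 and KLF13 were lower. KLF3, KLF7, KLF9 and KLF11 did not pass. The 3 of 10 higher stand beside 26.4% of all tested genes called higher, and the 3 of 10 lower beside 15.8% called lower (6 of 10 against 42.2% in either direction). The KLF genes had a median log2 fold change of -0.13 and a range of -0.92 to 1.11, and all tested genes a median of 0.05. Both shFAM49B libraries lay above both shCON libraries for 4 KLF genes, where 43.1% of tested genes did so, and below them for 6, where 31.6% did so, so that the groups overlapped for none of the 10 genes, as for 74.7% of tested genes. KLF6 and KLF10 were called and differed at least 2-fold in mean FPKM. Of all tested genes, 2.06% were called higher with at least that fold and 3.75% called lower with at least that fold.

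**Figure D1:**
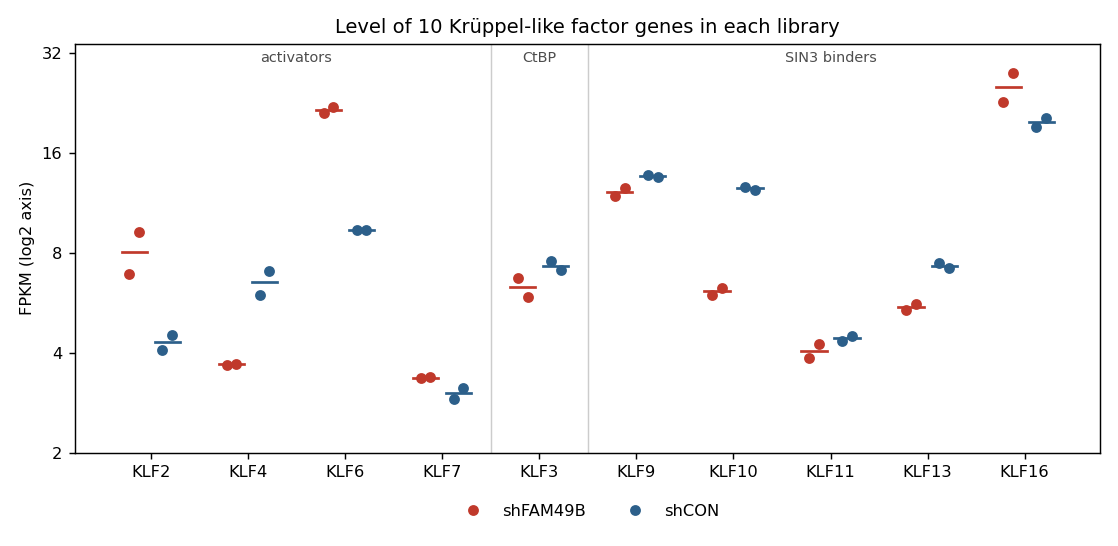
FPKM (log2 axis) of the 10 KLF genes, ordered by the corepressor or activation domain of the protein, in each library of shFAM49B (red, left) and shCON (blue, right). Points are libraries and short bars are means of 2. KLF6 sits at 21.0 and 21.9 FPKM in shFAM49B against 9.36 and 9.39 FPKM in shCON, and KLF10 lies the other way round.

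The direction of small differences depended on the scaling between libraries. Of the called genes 62.7% were higher with the deposited values, which carry a factor by median ratios, against 26.8% as TPM (each library scaled to the same sum), 29.2% relative to recovered reads, 52.5% after median ratios over the tested genes and 52.0% after quantile normalization. TPM moved the log2 fold changes of all genes by a median of -0.24, and scaling to recovered reads moved them by a median of -0.19. KLF6 and KLF2 were called higher, and KLF10, KLF4 and KLF13 lower, under all of these scalings. KLF16 stayed above 0 but passed under none of the other 4.

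**Figure D2:**
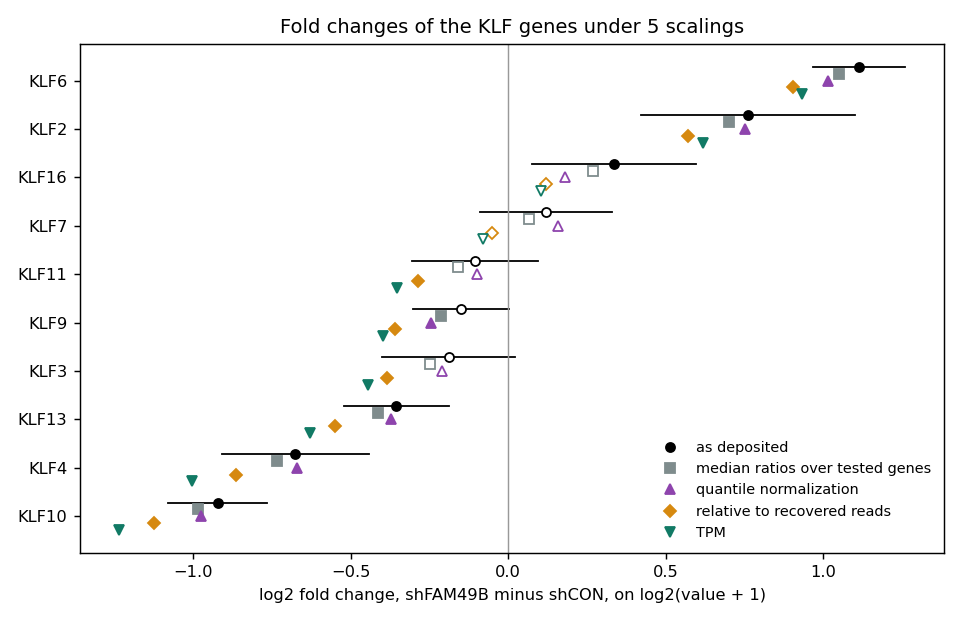
Log2 fold change (shFAM49B minus shCON) of each KLF gene with the deposited values, with its 95% interval, and under 4 other scalings. Filled symbols passed an adjusted p of 0.05. KLF6 and KLF2 stay to the right of 0 and KLF13, KLF4 and KLF10 to the left under every scaling, while KLF7 crosses 0.

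KLF2, KLF4, KLF6 and KLF7 belong to the class with acidic activation domains. Of these 4 genes, 2 rose, 1 fell and 1 did not pass, and their summed level was 35.0 and 38.2 FPKM in shFAM49B, against 22.3 and 24.1 FPKM in shCON. Most of the difference in the sum came from KLF6. In mean FPKM, shFAM49B minus shCON, KLF6 differed by 12.1, KLF2 by 3.75, KLF7 by 0.35 and KLF4 by -2.82.

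KLF6 (ENSG00000067082, chromosome 10, 3775996 to 3785281 on the minus strand, GRCh38) encodes a ubiquitous activator that is induced early after injury or growth factors and restrains growth. It measured 21.0 and 21.9 FPKM in shFAM49B, against 9.36 and 9.39 FPKM in shCON. Both shFAM49B libraries lay far above both shCON libraries, from 1979 and 2011 reads against 969 and 1066. The difference was 2.29-fold (log2 fold change 1.11, SE 0.0581, limma adjusted p = 0.00104), the largest rise of the 10 genes. In shCON KLF6 was the fourth highest of the 10 genes and in shFAM49B the second.

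KLF2 (ENSG00000127528, chromosome 19, 16324817 to 16327874 on the plus strand, GRCh38) encodes a factor known for keeping endothelium and T lymphocytes quiescent, and its gene is induced by the kinases MEK5 and ERK5 through MEF2 proteins. It measured 6.92 and 9.21 FPKM in shFAM49B, against 4.08 and 4.53 FPKM in shCON. The groups did not overlap, but the shFAM49B libraries lay apart from each other, and KLF2 rested on 139 to 278 reads a library. The mean was 1.87-fold higher in shFAM49B (log2 fold change 0.76, SE 0.134, limma adjusted p = 0.00993). The call was lost without shCON replicate 1 (adjusted p = 0.056) and when low genes were not filtered out (adjusted p = 0.0585). The rank of KLF2 among the 10 genes was 4 in shFAM49B and 9 in shCON.

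KLF4 (ENSG00000136826, chromosome 9, 107484852 to 107490482 on the minus strand, GRCh38) encodes a factor of epithelial differentiation and of reprogramming to pluripotency. It measured 3.67 and 3.71 FPKM in shFAM49B, against 5.98 and 7.05 FPKM in shCON. The shFAM49B libraries were close together and both lay below the shCON libraries, whose own values differed more. KLF4 fell 1.77-fold (log2 fold change -0.68, SE 0.0922, limma adjusted p = 0.00485).

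KLF7, which in mice supports the outgrowth of axons, measured 3.34 and 3.38 FPKM in shFAM49B, against 2.90 and 3.13 FPKM in shCON. It was the lowest of the 10 genes in both groups. Its log2 fold change of 0.12 (95% interval -0.09 to 0.33) did not pass (limma adjusted p = 0.292) and became -0.080 when taken as TPM.

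The promoters of KLF6, KLF2 and KLF4, the genes of this class that changed, are shown from 250 bases before to 50 bases after the RefSeq start (GRCh38.p14), each 5′ to 3′ on the strand of its gene. Capitals mark GC boxes, GGGCGG on either strand, and in KLF2 also a MEF2 site. They are chr10:3785160-3785459 (minus strand) for KLF6, chr19:16324576-16324875 (plus strand) for KLF2 and chr9:107489720-107490019 (minus strand) for KLF4.
KLF6: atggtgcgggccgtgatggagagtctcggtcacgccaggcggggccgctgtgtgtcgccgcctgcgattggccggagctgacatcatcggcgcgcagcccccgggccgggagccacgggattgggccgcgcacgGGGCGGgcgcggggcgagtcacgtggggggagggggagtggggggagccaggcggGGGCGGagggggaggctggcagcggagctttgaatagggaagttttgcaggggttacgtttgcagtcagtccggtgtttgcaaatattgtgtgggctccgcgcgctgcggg
KLF2: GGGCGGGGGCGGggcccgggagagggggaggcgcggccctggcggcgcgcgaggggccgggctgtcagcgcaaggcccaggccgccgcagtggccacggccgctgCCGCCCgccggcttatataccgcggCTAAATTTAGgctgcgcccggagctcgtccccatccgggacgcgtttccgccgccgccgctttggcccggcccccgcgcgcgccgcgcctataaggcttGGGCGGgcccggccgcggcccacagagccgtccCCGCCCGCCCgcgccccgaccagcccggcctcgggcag
KLF4: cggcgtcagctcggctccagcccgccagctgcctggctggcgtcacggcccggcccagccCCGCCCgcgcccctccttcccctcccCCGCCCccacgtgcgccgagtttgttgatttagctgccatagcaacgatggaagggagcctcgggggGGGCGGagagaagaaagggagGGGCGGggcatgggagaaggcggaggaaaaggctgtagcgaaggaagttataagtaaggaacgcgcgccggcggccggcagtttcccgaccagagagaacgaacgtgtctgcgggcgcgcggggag

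KLF6 held 2 GC boxes, KLF2 held 6 (some overlapping) and KLF4 held 4. The RefSeq table had 12 promoters for 8 of the 10 genes, and 8 of the 12 (66.7%) held a GC box, against 45.0% of all 35116 promoters of 300 bases. A CACCC box (CACCC on either strand) was in 5 of the 12 (41.7%), against 59.9% of all promoters, and in none of the 3 printed. The MEF2 site of KLF2 begins at position -120 from the start, and a MEF2 site was in 2.99% of all promoters and in no other promoter of a KLF gene here. No heat shock element core (GAANNTTC, in 6.77% of all promoters) and no AP-1 site (TGANTCA, in 7.71%) was in the printed promoters. Other rare motifs searched for were in promoters not printed. A promoter of KLF11 held a cyclic AMP response element (TGACGTCA, in 1.85% of all promoters). A promoter of KLF7 held a heat shock element core and a CArG box, the site of SRF (in 1.29%). These letters describe the sequence and say nothing of binding.

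KLF3 represses transcription by recruiting CtBP. It measured 6.72 and 5.88 FPKM in shFAM49B, against 7.53 and 7.09 FPKM in shCON. The shFAM49B libraries were the lower ones, but the log2 fold change of -0.19 (95% interval -0.40 to 0.02) did not pass (limma adjusted p = 0.125). As TPM KLF3 was called lower (log2 fold change -0.44, adjusted p = 0.0215), and relative to recovered reads also (-0.39, adjusted p = 0.0233).

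KLF9, KLF10, KLF11, KLF13 and KLF16 bind the corepressor SIN3. Of these 5 genes, 2 fell, 1 rose and 2 did not pass, and their summed level was 49.8 and 56.4 FPKM in shFAM49B, against 57.3 and 57.9 FPKM in shCON.

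KLF10 (ENSG00000155090, chromosome 8, 102648779 to 102655902 on the minus strand, GRCh38) and KLF11 were both first described as early genes of TGF-beta signalling. KLF10 measured 5.98 and 6.24 FPKM in shFAM49B, against 12.6 and 12.3 FPKM in shCON. Its libraries agreed closely within each group, at 367 and 374 reads in shFAM49B and 852 and 914 in shCON. KLF10 fell 2.04-fold (log2 fold change -0.92, SE 0.062, limma adjusted p = 0.0015), the largest fall of the 10 genes. KLF11 measured 3.85 and 4.24 FPKM in shFAM49B, against 4.34 and 4.502 FPKM in shCON. Its log2 fold change of -0.10 (95% interval -0.30 to 0.10) did not pass (limma adjusted p = 0.331), although it was called lower as TPM (-0.35, adjusted p = 0.0276) and relative to recovered reads (-0.29, adjusted p = 0.0347).

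The ratio of KLF6 to KLF10 inside a library does not depend on the scaling between libraries. It was 3.52 and 3.51 in shFAM49B, against 0.742 and 0.760 in shCON. The pair was chosen after its values were seen, so the ratio is a description.

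KLF13 (ENSG00000169926, chromosome 15), known as an activator of the chemokine gene CCL5 in T lymphocytes, measured 5.38 and 5.59 FPKM in shFAM49B, against 7.42 and 7.17 FPKM in shCON. Both shFAM49B libraries lay below both shCON libraries. KLF13 fell 1.33-fold (log2 fold change -0.36, SE 0.0658, limma adjusted p = 0.0112). The call was lost without shCON replicate 1 (adjusted p = 0.0781), shCON replicate 2 (0.0567) or shFAM49B replicate 1 (0.0503).

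KLF16 (ENSG00000129911, chromosome 19) was the highest of the 10 genes in both groups. It measured 22.7 and 27.8 FPKM in shFAM49B, against 19.2 and 20.3 FPKM in shCON. Both shFAM49B libraries lay above both shCON libraries, but they differed from each other by more than the lower of them differed from either shCON library. KLF16 passed narrowly (1.28-fold higher, log2 fold change 0.34, SE 0.104, limma adjusted p = 0.0498) and kept its call under 4 of 13 alternatives. Without shFAM49B replicate 2 its log2 fold change was 0.20 (adjusted p = 0.136).

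KLF9, which thyroid hormone and glucocorticoids induce, measured 11.9 and 12.5 FPKM in shFAM49B, against 13.7 and 13.6 FPKM in shCON. The groups did not overlap, but the log2 fold change of -0.15 (95% interval -0.30 to 0.00) did not pass (limma adjusted p = 0.102). KLF9 was called lower under each of the 4 other scalings, with log2 fold changes of -0.21 to -0.40.

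**Figure D3:**
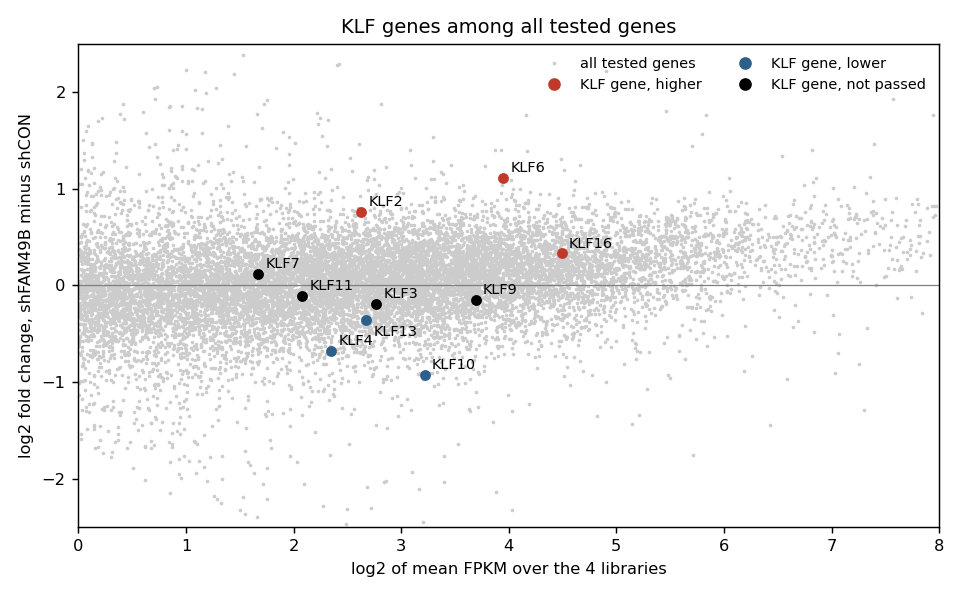
Log2 fold change (shFAM49B minus shCON) against the log2 of mean FPKM for all tested genes (grey) and the 10 KLF genes (red higher, blue lower, black not passed). KLF6 and KLF10 lie outside the bulk of genes of similar level, at 1.11 and -0.92, and 130 tested genes lie beyond the axes.

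Within shFAM49B the 10 genes ran from KLF16 (25.3 ± 3.58 FPKM, SD, n = 2) and KLF6 (21.5 ± 0.613) through KLF9 (12.2 ± 0.481) and KLF2 (8.06 ± 1.62) to KLF4 (3.69 ± 0.0252) and KLF7 (3.36 ± 0.0226). Within shCON they ran from KLF16 (19.7 ± 0.804 FPKM) and KLF9 (13.6 ± 0.113) through KLF10 (12.5 ± 0.191) and KLF6 (9.37 ± 0.0236) to KLF2 (4.31 ± 0.315) and KLF7 (3.01 ± 0.163). Of neighbours in these orders, the values of KLF3 and KLF10 overlapped in shFAM49B, and those of KLF3 and KLF13 and of KLF11 and KLF2 overlapped in shCON. The sum over the 10 genes was 91.5 and 100.5 FPKM in shFAM49B, against 87.1 and 89.1 FPKM in shCON.

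Genes that overlap the KLF genes could add reads to them where strand was not used in counting. Few reads were assigned to these genes themselves, which does not show how many were counted under a KLF gene. KLF3-AS1 held 2 and 8 reads in shFAM49B and 1 and 6 in shCON, KLF7-IT1 held 10 and 4 in shFAM49B and 5 and 4 in shCON, and AC012615.4, opposite KLF16, held 15 and 15 in shFAM49B and 9 and 17 in shCON. AC012615.3, UBE2CP4, AC104794.4, MIR2355 and MIR7845 were at 0 in every library. Of 10 processed pseudogenes named after KLF genes, 7 were at 0 in every library.

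An AU-rich pentamer (ATTTA) was in the 3′ untranslated region of all 10 KLF genes in GENCODE release 29, and at least 3 copies in 8 of them. The comparison was with 6042 tested protein-coding genes whose regions had 843 to 7076 bases, the range of the 10 genes. Of these, 89.5% held the pentamer and 64.9% held at least 3 copies. Lengths were not matched within that range. The nonamer TTATTTATT was in KLF16 alone among the 10 genes, against 11.7% of the same 6042 genes.

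Among 6 other KLF genes, KLF15 and KLF12 were tested. KLF15 measured 6.39 and 6.99 FPKM in shFAM49B, against 5.08 and 5.51 FPKM in shCON (1.26-fold, limma adjusted p = 0.0347), and lost its call as TPM (adjusted p = 0.423), relative to recovered reads (0.349), after median ratios over the tested genes (0.0658), when low genes were not filtered out (0.0985) and in each fit that left out a library (0.0596 to 0.171). KLF12, a CtBP binder like KLF3, measured 2.04 and 1.70 FPKM in shFAM49B, against 1.98 and 1.98 FPKM in shCON, and did not pass (adjusted p = 0.719). KLF1, KLF8, KLF14 and KLF17 were below 0.33 FPKM in every library.

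The Sp proteins share the zinc fingers of the KLF proteins and bind the same GC boxes. Of 6 tested Sp genes, 1 rose, 2 fell and 3 did not pass (median log2 fold change 0.11, and -0.11 as TPM), so that 3 of 6 were called, near the 42.2% of all tested genes called in either direction. SP1, the ubiquitous activator at GC boxes, rose to 39.5 and 41.0 FPKM in shFAM49B, against 23.7 and 21.6 FPKM in shCON (1.78-fold, limma adjusted p = 0.00193). SP3, which competes with SP1, fell to 7.85 and 7.71 FPKM in shFAM49B, against 10.02 and 9.75 FPKM in shCON (1.27-fold lower, adjusted p = 0.0132). SP6, a factor of tooth and skin epithelium, fell 1.66-fold (adjusted p = 0.0115). SP8 was at 2.33 ± 0.115 FPKM in shFAM49B and 1.83 ± 0.0425 FPKM in shCON (SD, n = 2) and did not pass (adjusted p = 0.123). SP3 and SP6 each lost the call without either shCON library (adjusted p = 0.0527 to 0.0842), and SP3 also without shFAM49B replicate 2 (0.0622).

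Of 16 genes of corepressors that KLF proteins bind, 9 rose, 2 fell and 5 did not pass, beside 26.4% of all tested genes higher and 15.8% lower. Their median log2 fold change was 0.20. Taken as TPM it was -0.04 and by recovered reads -0.02, with 2 higher and 4 lower under both. Over all 13775 tested genes 1597 were higher and 4362 lower as TPM, and 1722 higher and 4173 lower by recovered reads. After median ratios over the tested genes 6 of the 16 were higher and 2 lower, where 2926 of all tested genes were higher and 2647 lower. After quantile normalization 4 of the 16 were higher and 3 lower, where 2647 of all tested genes were higher and 2446 lower. EHMT2, a histone H3 lysine methyltransferase, measured 15.7 and 15.7 FPKM in shFAM49B, against 10.5 and 9.39 FPKM in shCON (1.58-fold, limma adjusted p = 0.00343). FHL3, a LIM protein that binds KLF3, rose 1.40-fold (adjusted p = 0.00441). RBBP4 and HDAC3, subunits of deacetylase complexes, rose 1.27-fold and 1.26-fold (adjusted p = 0.00978 and 0.0184) and did not pass as TPM (0.252 and 0.28). Of 4 histone acetyltransferase genes, 2 fell, none rose and 2 did not pass, where 15.8% of all tested genes fell. As TPM and by recovered reads 3 of the 4 were lower, and after median ratios over the tested genes or quantile normalization 2 were. CREBBP measured 7.59 and 9.10 FPKM in shFAM49B, against 12.7 and 12.8 FPKM in shCON (1.53-fold lower, adjusted p = 0.00792), and EP300 fell 1.35-fold (adjusted p = 0.00858). KAT2B was at 3.85 ± 0.398 and KAT2A at 25.9 ± 0.941 FPKM in shFAM49B, and they were at 4.70 ± 0.17 and 24.0 ± 1.22 FPKM in shCON (adjusted p = 0.0868 and 0.233).

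The kinases MEK5 and ERK5 act on MEF2 proteins, which induce KLF2 and KLF4 in endothelium. Of 7 tested genes of this module, 3 rose, 1 fell and 3 did not pass (median log2 fold change -0.03, and -0.26 as TPM), where 26.4% of all tested genes rose and 15.8% fell. MEF2A fell to 5.74 and 6.36 FPKM in shFAM49B, against 9.60 and 9.03 FPKM in shCON (1.54-fold lower, limma adjusted p = 0.00503). MEF2D measured 15.0 and 15.0 FPKM in shFAM49B, against 11.4 and 11.2 FPKM in shCON (1.33-fold, adjusted p = 0.00617). MAP2K5, which encodes MEK5, rose 1.33-fold (adjusted p = 0.0153), and MAP3K3, which encodes a kinase acting on MEK5, rose 1.22-fold (adjusted p = 0.0283). MEF2D, MAP2K5 and MAP3K3 did not pass as TPM (adjusted p = 0.0742, 0.13 and 0.615), so that no gene of the module was called higher there. By recovered reads none was called higher either. Of all 13775 tested genes, 1597 were called higher as TPM (median log2 fold change -0.17) and 1722 by recovered reads. After median ratios over the tested genes 2 genes of the module were higher, and after quantile normalization 3 were. Of all tested genes, 2926 and 2647 were higher under these 2 scalings. MAPK7, which encodes ERK5, was at 3.37 ± 0.113 FPKM in shFAM49B and 3.46 ± 0.0753 FPKM in shCON (adjusted p = 0.782).

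Of 10 ubiquitin ligase genes reported to act on KLF proteins, 2 fell, none rose and 8 did not pass (median log2 fold change -0.10), where 15.8% of all tested genes fell and 26.4% rose. As TPM 6 of the 10 were lower (median -0.34), and by recovered reads 5 were (median -0.30). Of all 13775 tested genes, 4362 were lower as TPM (median -0.17) and 4173 by recovered reads (median -0.13). After median ratios over the tested genes 3 of the 10 were lower, and after quantile normalization 1 was. Of all tested genes, 2647 and 2446 were lower under these 2 scalings. FBXW7 fell 1.41-fold (limma adjusted p = 0.035) and FBXO32 fell 1.78-fold (adjusted p = 0.0349), and both lost the call in each fit that left out a library (adjusted p = 0.0615 to 0.152). SMURF2 measured 4.32 ± 0.274 and BTRC 7.07 ± 0.108 FPKM in shFAM49B, and they measured 5.18 ± 0.319 and 6.21 ± 0.117 FPKM in shCON (adjusted p = 0.0858 and 0.0925).

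Of 20 genes reported in other cells to be controlled by KLF proteins, 11 were tested, of which 4 rose, 4 fell and 3 did not pass (median log2 fold change 0.04, and -0.20 as TPM), against 26.4% of all tested genes higher and 15.8% lower. As TPM and by recovered reads 2 of the 11 were higher and 5 lower. Of all 13775 tested genes, 1597 were higher and 4362 lower as TPM (median -0.17). By recovered reads 1722 of all tested genes were higher and 4173 lower. After median ratios over the tested genes 4 of the 11 were higher, and after quantile normalization 3 were, with 5 lower under both. All tested genes then gave 2926 higher and 2647 lower, and 2647 higher and 2446 lower. CCL5, the chemokine gene bound by KLF13, rose to 130.05 and 137 FPKM in shFAM49B, against 49.9 and 54.5 FPKM in shCON (2.56-fold, limma adjusted p = 0.00104). SMAD7, the inhibitor of TGF-beta signalling that KLF10 and KLF11 are reported to repress, fell to 4.47 and 4.22 FPKM in shFAM49B, against 11.6 and 11.7 FPKM in shCON (2.67-fold lower, adjusted p = 0.00104). LGALS3, which encodes galectin 3 and is repressed by KLF3 in mice, was at 0.109 and 0.251 FPKM in shFAM49B, against 3.46 and 3.90 FPKM in shCON (log2 fold change -1.99, adjusted p = 0.00167). The simple keratin gene KRT19 fell 20.5-fold. CDKN1A, the cell cycle inhibitor gene that KLF4 and KLF6 activate, was at 15.2 ± 0.72 FPKM in shFAM49B and 16.8 ± 0.394 FPKM in shCON (SD, n = 2, adjusted p = 0.137).

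Of 8 tested genes that respond to glucocorticoids, as KLF9 does, 2 rose, 4 fell and 2 did not pass (median log2 fold change -0.36), beside 26.4% of all tested genes higher and 15.8% lower. As TPM and by recovered reads 0 of the 8 were higher and 4 lower, with medians of -0.67 and -0.54. Of all 13775 tested genes, 1597 were higher and 4362 lower as TPM (median -0.17). By recovered reads 1722 of all tested genes were higher and 4173 lower (median -0.13). After median ratios over the tested genes 2 of the 8 were higher, and after quantile normalization 1 was, with 4 lower under both. All tested genes then gave 2926 higher and 2647 lower, and 2647 higher and 2446 lower. ERRFI1, an inhibitor of EGFR, fell to 9.04 and 8.27 FPKM in shFAM49B, against 15.1 and 14.004 FPKM in shCON (1.68-fold lower, limma adjusted p = 0.00296). TSC22D3, which encodes the glucocorticoid-induced leucine zipper, fell 1.28-fold (adjusted p = 0.0113), and NR3C1, the glucocorticoid receptor gene, fell 1.45-fold (adjusted p = 0.0145). PER1, a clock gene, rose 1.38-fold (adjusted p = 0.0103) and did not pass as TPM (0.0646). Without shFAM49B replicate 2 the calls of TSC22D3 (0.0621), NR3C1 (0.0683) and PER1 (0.0565) were lost. TSC22D3 (0.06) and PER1 (0.0592) also lost theirs without shCON replicate 2, and NR3C1 (0.0836) without shCON replicate 1.

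**Figure D4:**
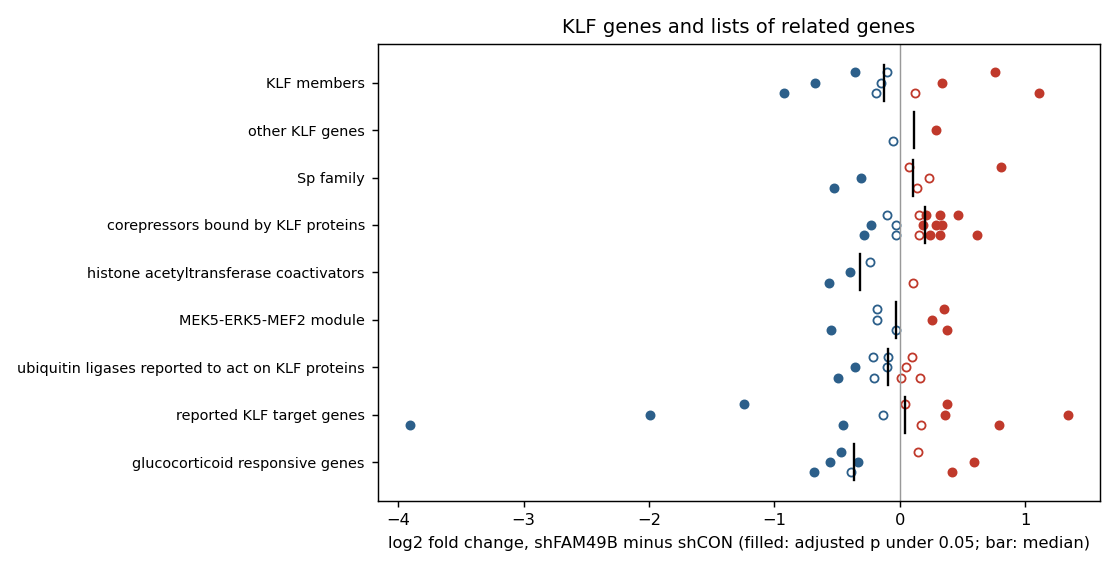
Log2 fold changes (shFAM49B minus shCON) of the tested genes of each list, red above 0 and blue below, filled where the adjusted p was under 0.05, with the median as a bar. The KLF genes spread from -0.92 to 1.11, the acetyltransferase genes have a median of -0.32, and KRT19 is the point at -3.90.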

How the data were processed

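Total RNA of 4 OVCAR8 libraries was sequenced after a NEBNext Ultra preparation, per the labels' protocols. The authors deposited FPKM per gene for each library, and no source used here names the aligner, the counter or its use of strand. GRCm38 and mm10, which are mouse builds, stand in the submitters' processing notes, but all 58735 identifiers are human, and 58724 have the start and end of GENCODE release 29 (GRCh38). Multiplied by gene length, FPKM values fell on whole multiples of a step in each library (100% within 0.001 of a step), which gave the reads back. For a 1 kb gene, 1 read is worth 0.0541 to 0.0668 FPKM. Chi-square per gene between libraries of a group was 3.48 (shFAM49B) and 3.90 (shCON), against 48.9 to 56.1 between groups, so each library was kept as a sample.

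Groups and numbers come from the sample titles. Genes averaging 1 FPKM or more were tested 2-sided on log2(FPKM + 1) by limma 3.58.1 (R 4.3.3), with trend and with 2 residual and 3.32 prior degrees of freedom. Log2 fold changes are on that scale and understate the change of low genes, while folds are ratios of mean FPKM. The procedure was also run on simulated reads with few changed genes and scaling by library totals, a setting that cannot speak to the choice of scaling here. The KLF genes and lists were chosen with earlier results of these data known. From each list up to 4 tested genes with the smallest p were named, and others named, such as CDKN1A, MAPK7 and PECAM1, were chosen by role after their values were seen. Alternatives were other pseudocounts, filters, scalings, a voom fit, a block and leaving out each library. Promoter sequences are from RefSeq.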

Additional observations from a re-analysis of the deposited data

How the results depend on the processing

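KLF6, KLF10 and KLF4 kept direction and call under all 13 alternatives run for each, with log2 fold changes of 0.90 to 1.19, -1.24 to -0.90 and -1.003 to -0.57, and so did FAM49B. As TPM and relative to recovered reads 6 KLF genes were called lower, and the calls over all genes were 1597 higher and 4362 lower (TPM) and 1722 higher and 4173 lower (recovered reads). Without a filter 1 KLF gene was called higher, and 2185 genes were higher and 1378 lower. With a filter at 5 FPKM 1322 genes were lower. Leaving out a library gave 1 to 3 KLF genes called higher, 2 to 3 lower, 1897 to 2495 genes higher and 1027 to 1529 lower. The sign of uncalled genes turned for KLF7 (-0.080 as TPM, -0.052 relative to recovered reads), KLF12 (0.012 after quantile normalization, -0.14 to 0.028 when a library was left out), KAT2A (-0.13, -0.11 and -0.049 as TPM, relative to recovered reads and after quantile normalization), BTRC (-0.055 and -0.033 as TPM and relative to recovered reads) and COL1A1 (-0.086 and -0.060 in the same pair). The cause was not tested. Quantile normalization and voom were chosen after seeing the data. The replicate number as a block gave 3429 genes higher and 2036 lower and moved no call of a KLF gene, and same-numbered libraries did not deviate together (correlation -0.0132). The 2 planned count tests were not run, because the deposited values are FPKM. KLF2 had the fewest reads of the 10 KLF genes in shCON (139 and 169), and KLF4 the fewest in shFAM49B (206 and 203). The part of depth in the calls was not tested.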
